A study of Mus musculus with 5 samples.

Results

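Type II spiral ganglion neurons, a small class of auditory afferents, made up 119 of the 1070 control neurons measured here from the mouse cochlea. A cell counted as type II when its level of Dupd1, which encodes an atypical dual-specificity phosphatase, was at least 1 UMI (a counted mRNA molecule) per 10000 UMIs of the cell. The other 951 control neurons were under that level and are called type I. The data set held 1954 neurons in all.

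Spiral ganglion neurons carry sound information from the hair cells to the brainstem. Type I neurons are myelinated, form the large majority, and contact inner hair cells. Type II neurons are unmyelinated, run below rows of outer hair cells and respond only weakly to sound. Peripherin (Prph), tyrosine hydroxylase (Th) and Gata3 are among the genes known to mark them.

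CKO mice were bhlhb5-Cre/+; Ai14/+; Runx1F/F (3 samples, 884 neurons) and control mice bhlhb5-Cre/+; Ai14/+ (2 samples, 1070 neurons), so both carried the Cre driver and the tdTomato reporter. Cochleae of both sexes at P30 to P33 were dissociated, sorted for tdTomato and sequenced as 3′ single-cell libraries. The neurons are those that had expressed Cre and passed dissociation and sorting, and the sort can set the shares of the classes. The matrix gives a genotype for each cell but no sample, which leaves 1 pool for each genotype and no replicate; no test was made, and all intervals cover counting error only.

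The barcodes of the columns ran in alphabetical order and restarted, which marked 5 stretches of columns, with the control cells in stretches 2 and 5. The sources used here do not say whether a stretch is a library. Type II neurons were 72 of 482 cells in stretch 2 (14.9%, exact binomial 95% interval 11.9 to 18.4%) and 47 of 588 cells in stretch 5 (7.99%, 5.93 to 10.5%). Across the 5 stretches, 1 barcode was shared.

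Dupd1, which the rule used, had a lowest level of 1.67, a median of 11.3 and a highest of 39.0 UMIs per 10000 in type II neurons. The 3 cells just inside the threshold were at 1.67, 1.80 and 1.94, and the 3 just outside at 0.94, 0.60 and 0.45. Of the 951 type I neurons, 5 held any Dupd1 UMI. The cells were thus selected on Dupd1, and the levels of other genes come from the same cells, so all values between the classes are given as descriptions.

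The other markers were present in most type II neurons, as the label has it. Of Myl1, Th, Plk5, Crabp1 and Hspb1, 82 of 119 type II neurons held a UMI of all 5 at full depth, 115 held at least 4, and the fewest was 2. In type I, 4 of 951 neurons held 3 or more. Also 4 type I neurons had Myl1 at 5 or more, all in stretch 2. In 3 of them, with Dupd1 at 0.94, 0.60 and 0, Myl1 stood at 90.3, 83.0 and 49.1 and Thy1, a type I gene, was at 0. The fourth had Myl1 at 27.1 beside Calb2 at 40.6 and Thy1 at 4.68, genes of both classes. Among the type II neurons, 1 held at least 2 of the type I genes Thy1, S100b and Lypd1 at 1 or more. The 4 cells stay in type I in what follows and are part of its small means for type II markers.

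**Figure D1:**
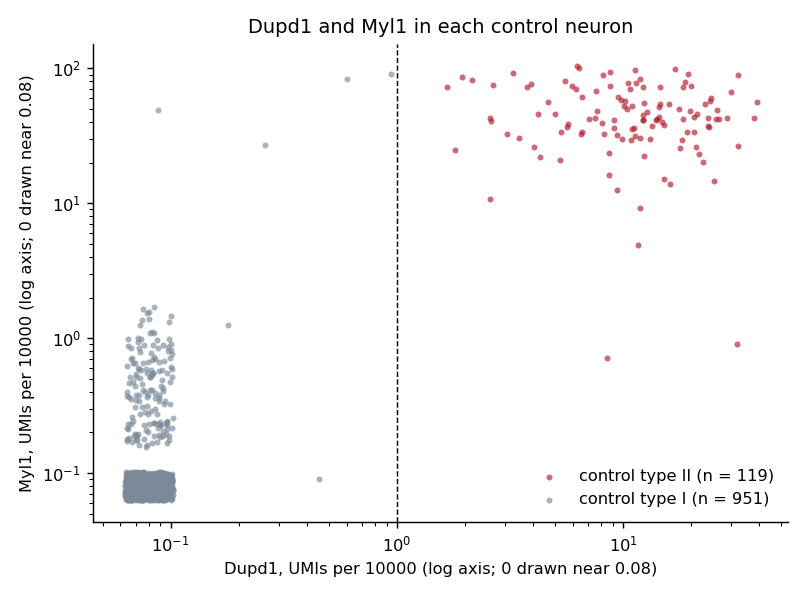
Dupd1 (x axis) and Myl1 (y axis) in each of the 1070 control neurons, in UMIs per 10000 on log axes, with cells at 0 drawn near 0.08; red points are the 119 type II and grey points the 951 type I neurons, and the line is the Dupd1 threshold of 1. The type II cells start at a Dupd1 level of 1.67, and 4 grey cells left of the line have Myl1 between 27.1 and 90.3.

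The promoters of 3 marker genes are shown because a named motif lies in each. Each is 300 bases in RefSeq's table for GRCm38.p6, starting 250 bases before the start that the table gives the gene, 5′ to 3′ on the gene's strand. TATAAA (the core promoter box), AGATAA (the letters that Gata factors bind), TGACGTCA (a cyclic AMP response element) and GAANNTTC (a pair of heat shock half-sites) were searched on both strands. Capitals mark the matches, which do not overlap. The Th promoter (chr7:142899946-142900245, minus strand) holds the cyclic AMP response element at -45. The Hspb1 promoter (chr5:135887669-135887968, plus strand) holds half-site pairs at -117 and -97. The Myl1 promoter (chr1:66945007-66945306, minus strand) holds the core promoter box at -95, read on the opposite strand.
Th: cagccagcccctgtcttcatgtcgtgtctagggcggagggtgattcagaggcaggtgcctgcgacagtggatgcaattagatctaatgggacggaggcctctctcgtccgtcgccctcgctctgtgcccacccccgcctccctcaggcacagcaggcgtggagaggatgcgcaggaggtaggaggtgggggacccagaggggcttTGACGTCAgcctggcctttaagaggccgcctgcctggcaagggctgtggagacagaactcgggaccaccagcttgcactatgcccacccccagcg
Hspb1: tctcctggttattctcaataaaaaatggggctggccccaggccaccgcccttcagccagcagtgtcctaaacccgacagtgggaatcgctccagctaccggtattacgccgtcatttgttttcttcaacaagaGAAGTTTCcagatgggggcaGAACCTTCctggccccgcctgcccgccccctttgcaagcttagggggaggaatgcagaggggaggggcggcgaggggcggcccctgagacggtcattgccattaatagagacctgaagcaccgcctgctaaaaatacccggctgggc
Myl1: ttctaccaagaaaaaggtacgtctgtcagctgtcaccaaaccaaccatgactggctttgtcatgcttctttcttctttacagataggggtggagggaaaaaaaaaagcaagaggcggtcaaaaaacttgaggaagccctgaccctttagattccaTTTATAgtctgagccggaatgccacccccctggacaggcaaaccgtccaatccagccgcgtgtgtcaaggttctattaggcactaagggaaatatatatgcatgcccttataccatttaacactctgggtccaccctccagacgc
Among 32851 promoters of the table, 1.79% held the response element, 7.86% a half-site pair, 13.6% the core promoter box and 11.2% the Gata letters. The promoters of Dupd1, Plk5 and Crabp1 held none of the 4. A match describes letters only, and whether it is a site in use was not tested.

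By GENCODE M21 (GRCm38, called mm10 in the submitters' processing notes), Dupd1 spans 21676537 to 21714576 on chromosome 14, Myl1 66924295 to 66945404 on chromosome 1 and Th 142892752 to 142931128 on chromosome 7, all on the minus strand. Plk5 spans 80356459 to 80365489 on chromosome 10, Crabp1 54764748 to 54773110 on chromosome 9 and Hspb1 135887919 to 135889563 on chromosome 5, all on the plus strand. The table's starts of Th and Myl1 lie inside these spans, not at their edge, so the printed sequences belong to the table's starts.

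Levels below are means over cells in UMIs per 10000, and log2 values compare type II with type I means after adding 0.1 to each. Counts of cells with a UMI are at full depth, with a median of 25326 UMIs a cell in type II and 39393 in type I neurons, unless thinning is named. Myl1, a myosin light chain best known from skeletal muscle, had a lowest type II cell at 0.708, a median of 42.8 and a highest of 105, against a type I median of 0 and highest of 90.3. It averaged 48.2 in type II and 0.348 in type I neurons (log2 6.75). The groups overlapped through the 4 cells described above and through the lowest type II cells. Of the 9 muscle and actin-motor genes tested, Myl1 was the 1 higher gene and the titin gene the 1 lower, at log2 -1.91. Higher and lower in such counts mean a 2-fold difference or more. Among all 4369 counted genes 12.2% were higher and 12.9% lower, so the muscle list as a whole did not stand out.

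Th, the rate-limiting enzyme of catecholamine synthesis, had a type II median of 4.08 and highest cell of 21.5, against a type I highest of 1.75. It averaged 5.09 in type II and 0.00552 in type I neurons (log2 5.62), from 1514 UMIs in type II and 18 in type I neurons, and per UMI sequenced it was 1037 times as frequent (654 to 1754). The type I cells with Th at 1.75, 1.56 and 1.20 were among the 4 neurons with Myl1 at 5 or more. The type I count, and with it this ratio, rests largely on them. Not every type II cell held a Th UMI: 97 of 119 did at full depth, against 5 of 951 type I neurons. The next enzyme of the pathway was not seen with it. Ddc, which turns L-DOPA into dopamine, had 0 UMIs in type II and 21 in type I neurons, and Slc18a2, the vesicular monoamine transporter, had 0 in type II and 5 in type I neurons. Each 0 of 119 allows a share of cells with a UMI of up to 2.52%. All type II neurons together held 3056524 UMIs and all type I neurons 37677940. At these totals the Ddc and Slc18a2 counts do not show a lower rate in type II. Of the 3 catecholamine pathway genes tested, Th was higher and none lower, and Qdpr averaged 0.808 in type II and 0.646 in type I neurons.

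Hspb1, a small heat shock protein, had a type II median of 9.70 and a highest cell of 24.6, against a type I median of 0 and highest of 22.4. It averaged 9.96 in type II and 0.0437 in type I neurons (log2 6.13). The type I cell at 22.4 was among the 4 neurons with Myl1 at 5 or more. Of 16 heat shock protein genes, 2 were higher, 1 lower and 13 within 2-fold. That is near or below the shares over all genes, 12.2% higher and 12.9% lower. Hspa2 was the other higher one, at 0.865 in type II and 0.0638 in type I neurons, and Hsph1 the lower, at 0.877 in type II and 2.28 in type I. The abundant chaperones Hspa8 and Hsp90ab1 were at 29.2 in type II and 32.1 in type I, and 41.3 in type II and 33.8 in type I.

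Crabp1, which binds retinoic acid in the cytosol, had quartiles of 0.683, 2.19 and 5.87 in type II neurons and a highest cell of 38.1. It averaged 4.49 in type II and 0.0220 in type I neurons (log2 5.23). In the retinoid list 2 of 4 genes were higher and 1 lower: Rxrg, a retinoid X receptor, was at 0.565 in type II and 0.178 in type I neurons, and Aldh1a3, which makes retinoic acid, at 0.527 in type II and 2.50 in type I. Plk5, a polo-like kinase relative, averaged 4.63 in type II and 0.0197 in type I neurons (log2 5.30).

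The further type II markers that could be counted went the same way. Of 9 listed, 8 were in the matrix, 5 reached the mean of 0.5 in either class that a gene needed to be counted, and all 5 were higher in type II. The list was set with earlier results of these data known, and Cilp in it is also among the 25 highest genes. The count is thus a description and no independent check of the label. Gata3, a transcription factor of inner ear development, had its lowest type II cell at 3.99 and its median at 9.23, against a type I median of 0.409. It averaged 8.99 in type II and 0.483 in type I neurons (log2 3.96). Ngfr, the p75 neurotrophin receptor, averaged 8.95 in type II and 0.703 in type I neurons, and Tle4, a corepressor, 3.56 in type II and 0.562 in type I. Cilp, a cartilage matrix protein, had UMIs in 119 of 119 type II and 4 of 951 type I neurons. A pair of listed genes were near the detection limit: Etv4 had 2 UMIs in type II and 2 in type I neurons, and Smad3 had 0 in type II and 41 in type I. Smad3 was thus not higher in type II neurons.

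Over all genes, 4369 reached the mean of 0.5 in either class. At least 2-fold higher in type II neurons were 532 (12.2%), and at least 2-fold lower were 565 (12.9%), with a median log2 of 0.02 over all. At 8-fold, 88 were higher and 52 lower. The counts given for single gene lists stand beside this background of 12.2% and 12.9%. Many lists are short, and whether any list departs from the background was not tested. Counted in both control stretches were 469 of the 532 and 491 of the 565. The genes were called from the pooled cells of these same stretches, so this is no independent repeat. Neurons of the CKO mice, with 152 type II and 732 type I cells by the same threshold, gave 479 of the 532 (90.0%) and 502 of the 565 (88.8%) again at 2-fold. In CKO type II against CKO type I neurons 12.2% of 4251 genes were higher and 13.0% lower.

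**Figure D2:**
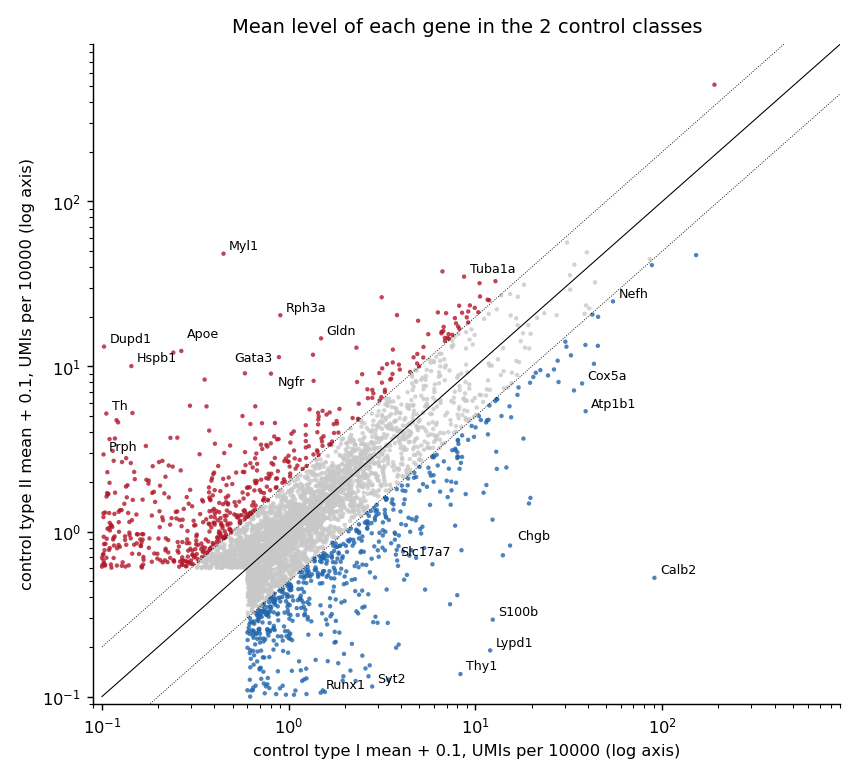
Mean level plus 0.1 of 4369 genes in control type II (y axis) against control type I neurons (x axis), UMIs per 10000 on log axes; red genes are at least 2-fold higher and blue genes at least 2-fold lower in type II neurons. Myl1 averaged 48.2 in type II and 0.348 in type I neurons, and Calb2, at the opposite edge, 0.424 in type II and 90.7 in type I.

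Among the 25 highest genes were 3 of the calcium-binding list, of which more genes were lower than higher (9 against 5 of 20). S100a13, an S100 calcium-binding protein, had its lowest type II cell at 2.22 and its median at 11.3, and averaged 12.0 in type II and 0.141 in type I neurons (log2 5.66). Hpcal1, a neuronal calcium sensor, averaged 8.23 in type II and 0.255 in type I neurons, and Necab1, a calcium-binding protein, 1.87 in type II and 0.00979 in type I. All 3 were found in at least 115 of the 119 type II neurons.

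Other genes among the 25 highest have varied roles. Rph3a, the vesicle protein rabphilin, had its lowest type II cell at 8.46 and averaged 20.3 in type II and 0.802 in type I neurons. Slc9a3r1, a membrane scaffold, averaged 5.12 in type II and 0.0456 in type I neurons. Nog, the BMP antagonist noggin, had UMIs in 117 of 119 type II and 11 of 951 type I neurons and averaged 2.98 in type II and 0.0141 in type I neurons. Kcnc4, a potassium channel, was found in 119 type II and 4 type I neurons. Palmd averaged 5.69 in type II and 0.196 in type I neurons, Igsf21, a synaptic adhesion protein, 3.60 in type II and 0.133 in type I, and Cpne8, a copine, 2.19 in type II and 0.00689 in type I. Bex1, Tex15 and Fnbp1l stood at 2.68, 2.54 and 2.50 in type II neurons, against 0.0347, 0.0280 and 0.0428 in type I neurons.

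Some genes had no UMI in one class, and these were picked after their values were seen. Slc6a4, the serotonin transporter, had 160 UMIs in type II and 0 in type I neurons, so its rate was at least 657-fold higher against a limit of 3 counts over the group. Scnn1b, an epithelial sodium channel subunit, had 175 UMIs in type II and 0 in type I neurons, at least 719-fold higher. Cd302, a C-type lectin receptor, had 0 UMIs in type II and 1991 in type I neurons, at least 53.8-fold lower. No other counted gene was at 0 in either class.

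Type I genes were low. Calb2, which encodes the calcium buffer calretinin, had a type II median of 0.307 and highest cell of 9.56, against a type I median of 46.8 and highest of 383. It averaged 0.424 in type II and 90.7 in type I neurons (log2 -7.44). Thy1, a surface glycoprotein of projection neurons, averaged 0.0369 in type II and 8.21 in type I neurons, S100b 0.192 in type II and 12.3 in type I and Lypd1, a modulator of nicotinic receptors, 0.0904 in type II and 11.9 in type I. Hapln4, a link protein of the matrix around nodes and synapses, averaged 0.0265 in type II and 3.32 in type I neurons, and Nos1, neuronal nitric oxide synthase, 0.0977 in type II and 3.66 in type I.

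Markers of type I subtypes divided. Runx1, the transcription factor deleted in CKO mice, had 2 UMIs in type II and 4940 in type I neurons, Pou4f1 2 in type II and 1607 in type I, and Calb1 1 in type II and 2394 in type I. Of 4 type Ia genes 2 were lower (Calb2 and B3gat1) and 2 higher. Pcdh20, a protocadherin, was found in 119 of 119 type II neurons and averaged 2.25 in type II and 0.164 in type I neurons. Rxrg, described above, was the other.

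In vesicle release 5 of 26 tested genes were higher, 10 lower and 11 within 2-fold (median log2 -0.73). Some related genes, paired after their values were seen, differed in opposite directions. Vamp2, a vesicle SNARE, averaged 4.91 in type II and 0.466 in type I neurons, whereas its relative Vamp1 averaged 0.311 in type II and 7.89 in type I. Syt1, a calcium sensor of release, averaged 1.03 in type II and 0.0101 in type I neurons, whereas Syt2 averaged 0.0150 in type II and 2.70 in type I and was found in 1 of 119 type II neurons. Snap25, a SNARE of the plasma membrane, averaged 7.95 in type II and 27.8 in type I neurons. Of 7 glutamate supply genes 4 were lower and 0 higher (median log2 -1.03): Slc17a7, the vesicular transporter VGLUT1, averaged 0.670 in type II and 8.31 in type I neurons, and Slc17a6, VGLUT2, 2.86 in type II and 2.05 in type I.

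Potassium channels were mostly lower, 10 of 14 Kv channel genes against 2 higher (median log2 -2.25). Kcnc1, a channel of fast spiking, averaged 1.59 in type II and 8.76 in type I neurons. Kcna1 and Kcna2, axonal low-threshold channels, averaged 1.5 in type II and 19.6 in type I neurons and 1.35 in type II and 5.61 in type I neurons. The higher ones were relatives of these: Kcnc4 averaged 3.56 in type II and 0.0173 in type I neurons and Kcna6 1.07 in type II and 0.0447 in type I. Of 5 other potassium and HCN channel genes 3 were lower, among them Hcn2, a pacemaker channel, at 0.345 in type II and 3.24 in type I neurons.

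Sodium channel genes gave 2 higher and 4 lower of 8 (median log2 -1.44). Scn9a, the NaV1.7 channel known from pain-sensing neurons, averaged 1.58 in type II and 0.00746 in type I neurons and was found in 112 of 119 type II and 21 of 951 type I neurons. Scn2b, a beta subunit, averaged 1.94 in type II and 0.0780 in type I neurons. Scn8a, the main sodium channel of nodes, averaged 0.533 in type II and 5.78 in type I neurons, and the beta subunit Scn4b averaged 0.173 in type II and 1.51 in type I. Of 15 genes of nodes and axon initial segments, 8 were lower and 0 higher. Calcium channel genes gave 2 higher and 1 lower of 6: Cacna2d2 averaged 1.98 in type II and 0.0499 in type I neurons, Cacng5 1.17 in type II and 0.0529 in type I and Cacng2, the AMPA receptor partner stargazin, 0.00348 in type II and 0.756 in type I.

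Ionotropic glutamate receptor genes gave 4 higher and 3 lower of 8 (median log2 1.33). Grin2c, an NMDA receptor subunit, averaged 1.19 in type II and 0.00190 in type I neurons. Grik3, a kainate receptor subunit, averaged 0.739 in type II and 0.00263 in type I neurons, and Neto2, an auxiliary of kainate receptors, 0.835 in type II and 0.0329 in type I. Grin1, the obligatory NMDA receptor subunit, averaged 0.317 in type II and 2.57 in type I neurons, Gria3 0.386 in type II and 1.94 in type I and Gria4 0.484 in type II and 1.17 in type I. Gria2, an AMPA receptor subunit, was within 2-fold at 1.10 in type II and 1.24 in type I neurons.

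**Figure D3:**
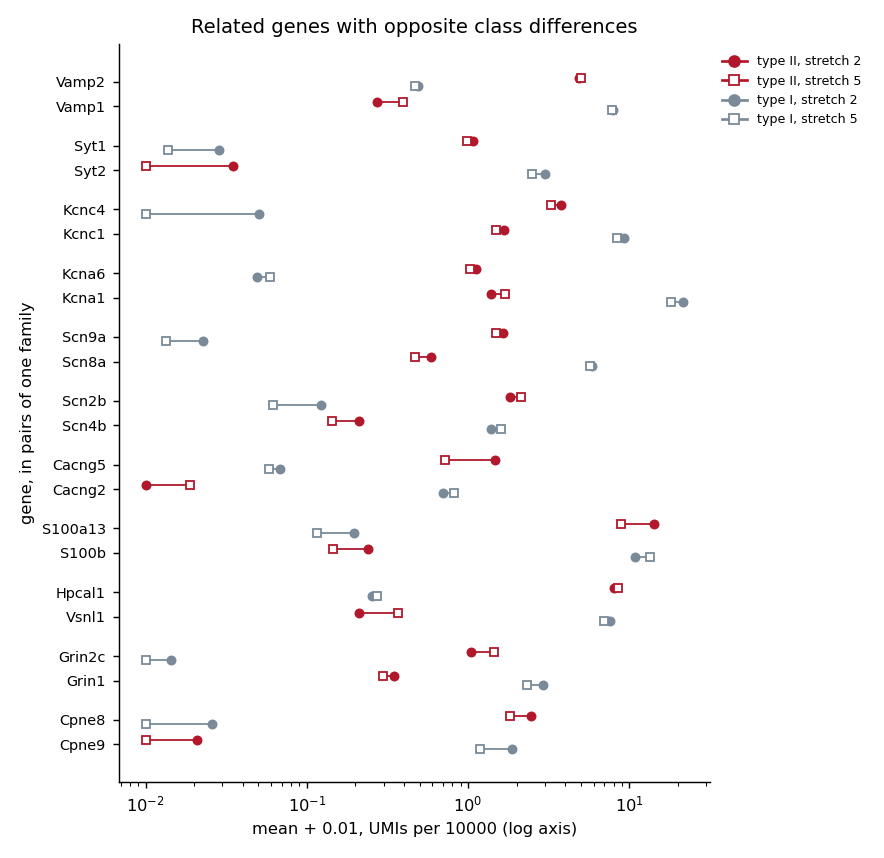
Related genes, the first of each pair at least 2-fold higher and the second at least 2-fold lower in type II neurons, chosen after their values were seen; marks are class means plus 0.01 (UMIs per 10000, log axis), red for control type II and grey for control type I neurons, with a symbol for each control stretch. Vamp2 averaged 4.91 in type II and 0.466 in type I neurons, and Vamp1 0.311 in type II and 7.89 in type I.

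The calcium-binding list had a median log2 of -0.64. S100a1 averaged 8.08 in type II and 1.26 in type I neurons, whereas S100b and S100a10 were lower. Pvalb, parvalbumin, was within 2-fold at 49.1 in type II and 39.3 in type I neurons. Of 10 neuropeptide and granin genes 3 were higher and 3 lower. Npy, neuropeptide Y, averaged 1.61 in type II and 0.00659 in type I neurons, Scg2 0.817 in type II and 0.0155 in type I and Pam, which amidates peptides, 1.46 in type II and 0.0651 in type I, whereas the granin Chgb averaged 0.722 in type II and 15.2 in type I.

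Transcription factor genes gave 13 higher and 6 lower of 35 (median log2 0.36). Id1, an inhibitor of differentiation factors, averaged 1.85 in type II and 0.0773 in type I neurons, and its relatives Id2 and Id3 averaged 2.24 in type II and 0.576 in type I, and 3.26 in type II and 0.610 in type I. Cbfb, the partner of Runx factors, averaged 1.81 in type II and 0.364 in type I neurons while Runx1 itself averaged 0.00548 in type II and 1.38 in type I. Other lower ones were Prox1, Shox2, Esrrg and Casz1.

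Of 8 trophic factor receptor genes 2 were higher and 0 lower. Gfra1, the GDNF co-receptor, averaged 1.77 in type II and 0.0344 in type I neurons, and Ngfr, given above, was the other. Ntrk2, the BDNF receptor, averaged 3.28 in type II and 2.34 in type I neurons, and Ntrk3, the NT-3 receptor, 0.422 in type II and 0.863 in type I. Axon guidance genes gave 3 higher and 5 lower of 12: Efna5, an ephrin, averaged 3.20 in type II and 0.0718 in type I neurons, Unc5b, a netrin receptor, 0.896 in type II and 0.0233 in type I and Epha4, an ephrin receptor, 0.187 in type II and 1.69 in type I. G protein and cyclic nucleotide signalling gave 8 higher and 3 lower of 17. Pde1c, a calcium-dependent phosphodiesterase, averaged 2.37 in type II and 0.139 in type I neurons, and Prkcb, a protein kinase C, 0.547 in type II and 2.22 in type I.

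In the cytoskeleton, Prph was higher and Nefm and Nefh lower among 6 intermediate filament genes. Nefm averaged 19.9 in type II and 45.3 in type I neurons, Nefh 24.7 in type II and 54.4 in type I and Nefl, within 2-fold, 20.8 in type II and 38.3 in type I. Of 23 tubulin and microtubule genes 8 were higher and 5 lower. Tuba1a averaged 34.9 in type II and 8.59 in type I neurons, Tppp, a tubulin-binding protein, 1.69 in type II and 0.197 in type I and Map1a 7.06 in type II and 33.6 in type I. Tubulin genes are near-identical in parts, so single values are uncertain. Of 7 sodium pump genes 2 were lower, among them Atp1b1 at 5.26 in type II and 38.8 in type I neurons, and 2 higher, among them Fxyd1, which is taken up with the glia.

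Ribosomal protein genes and genes of oxidative phosphorylation went opposite ways. Of 76 ribosomal protein genes 38 were higher and 0 lower (median log2 0.997, 75 above 0). They took a median of 9.60% of a cell's UMIs in type II neurons (4.14 to 12.4%) and 4.71% in type I neurons (1.11 to 10.9%). Of 76 nuclear oxidative phosphorylation genes 0 were higher and 26 lower (median log2 -0.94, 71 below 0), and they took 3.66% in type II and 7.19% in type I neurons. Cox5a, a cytochrome oxidase subunit, averaged 7.79 in type II and 37.1 in type I neurons. Ribosomal protein genes have many near-copies in the genome, so their single values are uncertain. Depth differed alongside, at 11215 to 38325 UMIs a cell in type II and 10379 to 81960 in type I neurons around the medians given above, and its part in these shares was not tested. With every cell thinned to 10000 UMIs, 549 genes were higher and 586 lower, and the median number of genes was 3652 in type II and 3630 in type I neurons.

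**Figure D4:**
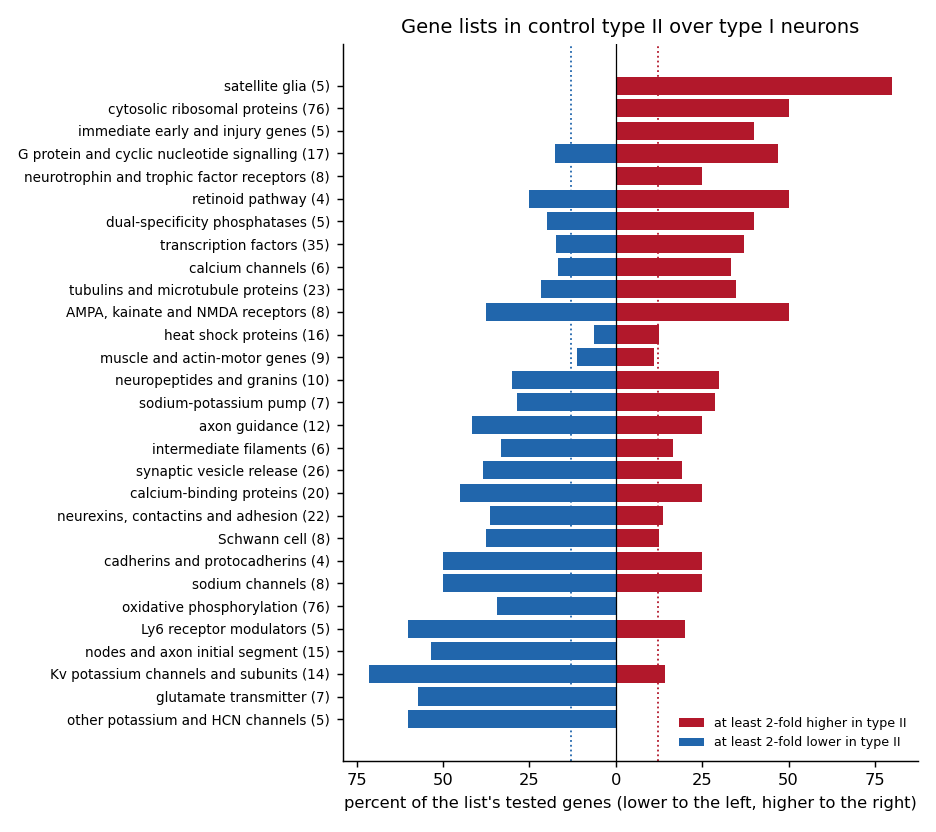
Percent of each list's tested genes at least 2-fold higher (red) or lower (blue) in control type II than in control type I neurons; dotted lines mark the shares over all 4369 genes, 12.2% and 12.9%. Of 14 Kv channel genes 10 are lower, and of 76 ribosomal protein genes 38 are higher.

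Glial RNA lay in both classes. All 13 Schwann cell and 7 satellite glia markers were in the matrix and none was at 0 in type II neurons. The Schwann cell sum had a median of 21.5 (5.50 to 102) in type II and 32.2 (0 to 207) in type I neurons, and the satellite glia sum 27.7 (9.85 to 247) in type II and 40.5 (4.56 to 143) in type I neurons. Gldn, a protein gathered at nodes, and Sparcl1, a matrix protein, were held by most neurons. Gldn averaged 14.7 in type II and 1.39 in type I neurons, and Sparcl1 22.4 in type II and 40.6 in type I. Both are part of the sums above. The satellite glia sum averaged 39.2 in type II and 41.7 in type I neurons, and in type I nearly all of it was Sparcl1. Gene by gene, 4 of 5 tested satellite glia genes were higher in type II and 0 lower (median log2 2.47). In glia-poor cells 0 were higher. Of 8 tested Schwann cell genes 1 was higher and 3 lower (median log2 -0.86). Without Gldn and Sparcl1 the joint sum of both lists had a median of 1.10 in type II and 32.5 in type I neurons. It reached 5 in 47 of 119 type II neurons (39.5%) and 608 of 951 type I neurons (63.9%), called glia-rich.

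Apoe, Fabp7 and Mbp are part of the sum that made this split, so their levels on either side of it are in part set by it and are given as descriptions. Apoe, a lipid carrier, averaged 31.2 in glia-rich type II and 0.252 in glia-rich type I neurons, and Fabp7, a fatty acid carrier, 5.51 in such type II and 0.0762 in such type I neurons. The myelin gene Mbp averaged 5.96 in glia-rich type II and 6.6 in glia-rich type I neurons. In glia-poor cells Apoe was at 0.0215 in type II and 0.0138 in type I neurons, where the split caps it below 5. Over all cells it averaged 12.3 in type II and 0.166 in type I neurons, which placed it among the 25 highest genes. Of the counted genes, 513 of 532 and 546 of 565 passed 2-fold in glia-poor cells too. Fxyd1, a regulator of the sodium pump, did not.

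Fxyd6 and Kcna1, which are not in the sum, were chosen here after their values were seen. Fxyd6, of the same family as Fxyd1, averaged 6.30 in type II and 3.19 in type I neurons over all cells, but 4.55 in glia-poor type II and 0.0237 in glia-poor type I neurons. Kcna1 averaged 3.24 in glia-rich and 0.363 in glia-poor type II neurons, whereas in type I neurons it was at 18.8 in glia-rich and 20.9 in glia-poor cells. Of markers of other cells, the fibroblast sum had a median of 0 (up to 7.13) in type II and 0.709 (up to 10.6) in type I neurons. No endothelial or erythrocyte marker was in the matrix. The macrophage, hair cell and supporting cell lists had 1 of 4 markers each, so RNA of these cells could hardly be checked. The hair cell marker, Myo7a, averaged 0.254 in type II and 0.0117 in type I neurons.

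Type II neurons were not alike. With every cell thinned to 10000 UMIs, Th was found in 87 of them (73.1%, 64.2 to 80.8%), against 0.421% of type I neurons. Prph was found in 62 (52.1%, 42.8 to 61.3%), against 0 of 951 type I neurons, which at 10000 UMIs a cell allows a share of up to 0.315%. At full depth 74 type II and 5 type I neurons held a Prph UMI. The Prph shares pool 2 stretches that differ, with type II means of 4.35 in stretch 2 and 0.502 in stretch 5. After thinning, Npy and Fmod, the matrix protein fibromodulin, were each found in 45 cells (37.8%, 29.1 to 47.2%), and Tnmd, tenomodulin, in 47. At full depth Npy had a median of 0 and a highest cell of 18.3, and Fmod a median of 0 and a highest cell of 24.3. Myl1, Gata3, Cilp and Kcnc4 were in all 119. Malat1, Apoe, Rn45s, Myl1, Fabp7, Pmp22, Igfbp6, Fmod and Meg3 were among the 10 genes with the largest variances over their means.

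**Figure D5:**
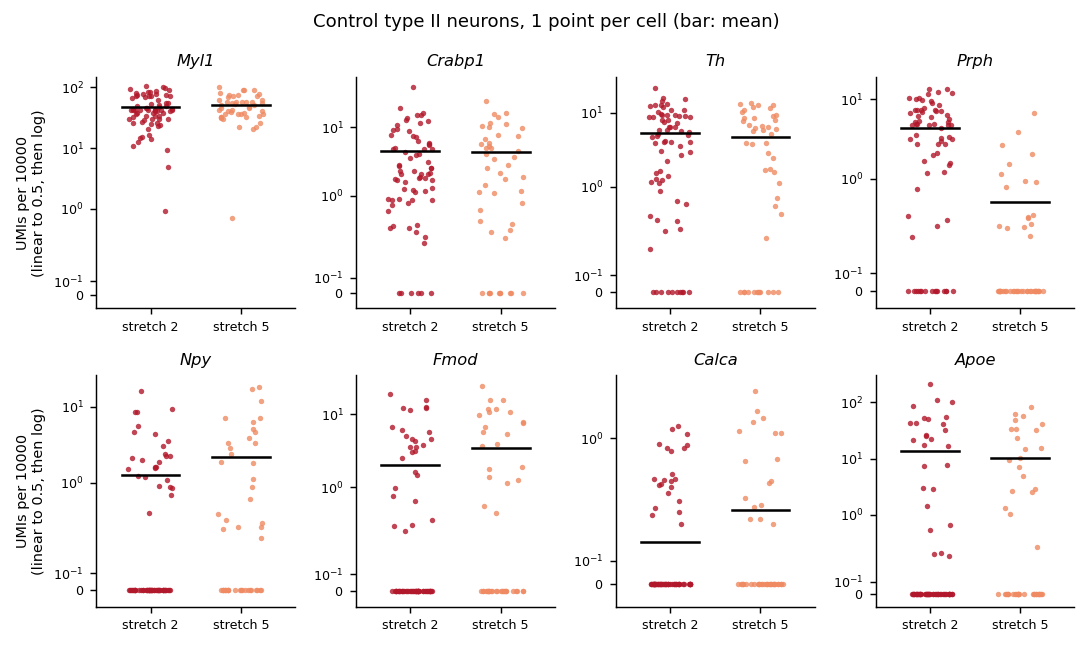
Levels of 8 genes in each of the 119 control type II neurons (UMIs per 10000, scale linear near 0 and logarithmic above), by stretch, 2 left and 5 right, with bars at the means. Prph averages 4.35 in stretch 2 and 0.502 in stretch 5, while Th averages 5.33 and 4.71.

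Prph differed most between the control stretches. Its quartiles over all type II neurons were 0, 0.900 and 4.83, with 4.35 as the mean of stretch 2 and 0.502 of stretch 5. Of 3963 genes in type II neurons, 10 were at least 2-fold higher (0.252%) and 20 lower (0.505%) in stretch 2 than in stretch 5. Edaradd, an adaptor of the ectodysplasin receptor, averaged 0.976 in stretch 2 and 0.103 in stretch 5, and Kitl, the Kit ligand, 1.71 in stretch 2 and 0.532 in stretch 5. Slc6a4 averaged 0.253 in stretch 2 and 0.911 in stretch 5, and Lmo4, a transcription cofactor, 1.67 in stretch 2 and 5.03 in stretch 5. Scg5 differed likewise in both classes, at 2.62 and 6.73 in type II and 3.90 and 10.7 in type I neurons. These genes were chosen after their values were seen, and what the stretches stand for was not tested.

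Across the 119 cells, thinned, the gene nearest to Th by Spearman's rho was Rgs17, a regulator of G protein signalling, at 0.47, with 0.44 in stretch 2, 0.49 in stretch 5 and 0.12 in CKO type II neurons. On the negative side was Rgs10 of the same family at -0.39, with -0.30 in CKO type II neurons. For Prph the nearest was Clu, the chaperone clusterin, at 0.61, with 0.58 in stretch 2, 0.32 in stretch 5 and 0.31 in CKO type II neurons. For Lmo4, rho with Prph was -0.56, with -0.54 in stretch 2 and -0.10 in stretch 5. The genes are the extremes of 3595, and the cells share libraries and depth. Calca, which encodes CGRP, had a UMI in 25.8% of the 97 cells with Th (17.4 to 35.7%) and 63.6% of the 22 cells without (40.7 to 82.8%) at full depth, with median depths of 25099 and 27045 UMIs. After thinning the shares were 16.1% of 87 and 21.9% of 32, with overlapping intervals.

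CKO type II neurons were close to control type II neurons in their levels. They were 152 of 884 CKO neurons (17.2%, 14.8 to 19.8%), against 119 of 1070 control neurons (11.1%, 9.30 to 13.2%), shares that the sort can set. Of 3816 genes, 6 were at least 2-fold higher (0.157%) and 1 lower (0.0262%) in CKO type II neurons. Dupd1 averaged 16.9 in CKO and 13.1 in control type II neurons, Myl1 40.1 in CKO and 48.2 in control cells and Th 3.98 in CKO and 5.09 in control cells. Runx1 averaged 0.0300 in CKO and 0.00548 in control type II neurons, and in type I neurons 2.02 in CKO and 1.38 in control cells. Where the 3′ tags lie relative to the deleted part is not given in the sources used here, so this checks nothing.

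Prph was the lower gene, at 0.838 in CKO and 2.83 in control type II neurons (log2 -1.64). Its direction rested on control stretch 2: without it the log2 value was 0.64, and the CKO stretches stood at 1.02, 0.467 and 1.52. Calb2 was the highest of the 6, at 2.41 in CKO and 0.424 in control type II neurons, carried by CKO cells at 201 and 55.2; without the highest 2 cells of each group it was at 0.738 in CKO and 0.322 in control type II neurons. Basp1, a growth-associated membrane protein, averaged 3.56 in CKO and 1.68 in control type II neurons, and Eid2, Cwc22, Hddc3 and Hnrnpd were the others, at 0.608 in CKO and 0.153 in control cells, 0.893 in CKO and 0.307 in control cells, 0.931 in CKO and 0.391 in control cells, and 1.68 in CKO and 0.785 in control cells. Each of these 5 was under 2-fold without control stretch 2, with log2 values of 0.81 for Basp1, 0.97 for Eid2, 0.83 for Cwc22, 0.45 for Hddc3 and 0.73 for Hnrnpd. Without CKO stretch 1, Cwc22 was at 0.27 and Basp1 at 0.70.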

How the data were processed

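The authors deposited 1 matrix of natural log values, ln(1 + UMIs per 100000) for 14715 genes in 1954 neurons, and a table with each cell's genotype. Cell Ranger, Seurat and mm10 are named in the submitters' processing notes, and their versions and parameters are not given in the sources used here. Each column was turned back into UMI counts: with a tolerance of 0.01, 100% of values were whole, at 10379 to 100856 UMIs per cell. The 5 stretches are described above. Levels are UMIs per 10000, averaged over cells. Folds are log2((mean + 0.1)/(mean + 0.1)), counted as called at 2-fold among genes with a mean of at least 0.5 in either group; no count model was used, since each genotype is 1 pool. Intervals are exact (Poisson sums compared by a conditional binomial, Clopper-Pearson for shares) at 95%, and the limit beside a count of 0 cells is 3 cells over the number of cells. Counts of cells with a UMI are at full depth unless thinning to 10000 UMIs is named, and no cell was shallower than that. UMIs are molecules after the authors' cell filter, and doublets were not called; cells with markers of both classes are named above. Recovery of UMIs and folds was checked on simulated data. Python 3.11.15, numpy 2.4.6, pandas 2.3.3, scipy 1.17.1 and matplotlib 3.10.9 were used. No column of values lacked a mapped group.

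The members, the 49 gene lists and the rules for naming genes were chosen with earlier results of these data known. Named are the 6 markers, the 25 highest and 20 lowest genes, up to 6 genes of a list by fold, the 10 genes of highest Fano factor, and up to 8 genes each way between CKO and control type II neurons; other genes of a list or pair named beside these were chosen after their values were seen. Predicted genes, pseudogenes, mitochondrial and reporter genes, and Xist, Tsix and Y-linked genes were not named, and some other genes that these rules select are not reported here. Alternatives tried were Dupd1 thresholds of 0.5 and 2, Myl1 in place of Dupd1, other pseudocounts and filters, pooled rates, thinning, single stretches and glia-poor cells.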

Additional observations from a re-analysis of the deposited data

How the results depend on the processing

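The number of control type II neurons was 121 at a Dupd1 threshold of 0.5, 116 at 2 and 135 with Myl1 in place of Dupd1, against 119. Genes at least 2-fold higher numbered 532 and lower 565. A pseudocount of 0.5 gave 341 and 320, since it shrinks the folds of low genes, and no filter on low means gave 819 higher and 840 lower. The other alternatives gave 454 to 727 higher and 429 to 772 lower genes. Of 180 named genes past 2-fold, 141 stayed past it with a pseudocount of 0.5, 171 in glia-poor cells, 171 with Myl1 as the rule and 175 or more under each of the others. Signs reversed in glia-poor cells for Igfbp6 (log2 0.032), near 0 there in both classes, and for Prph in CKO over control type II neurons without control stretch 2 (0.64); the cause was not tested. The alternatives with glia-poor cells, without the 4 type I cells of high Myl1 and without type II cells that hold type I genes were chosen after seeing the data; the last gave Calb2 a log2 value of 0.65 in CKO over control type II neurons, against 2.26. The planned sum with Gldn and Sparcl1 left 0 type II cells under 5 and gave no value. Leaving out a replicate was not run. No paired analysis was possible because the matrix gives no sample for a cell. Depth limits the low genes: 3 UMIs over all type II neurons are 0.0098 UMIs per 10000.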
